A study of Mus musculus with 54 samples.

Results

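The disease-associated microglia genes described here are 10 in number, Apoe, Lpl, Cst7, Itgax, Spp1, Gpnmb, Clec7a, Lgals3, Igf1 and Cd9, and were found by symbol among the 16632 genes of the count table. All 10 were in the table, and all 10 were among the 13169 genes that passed the filter on low counts and were tested. The samples were 54 RNA libraries of primary C57BL/6 microglia, the brain's own phagocytes, that had been raised from neonatal brains in flasks holding cells of 2 brains, in medium with L929 cell supernatant, and shaken off an astrocyte layer. Untreated cells gave 6 libraries from 4 experiments, and the same-numbered libraries of experiments 2 and 4 were summed, which left 4 units. Cells that had taken up 1 µM Atto-488-labelled alpha-synuclein (aSyn), the protein that accumulates in Parkinson's disease, for 14 h without co-culture gave 4 libraries. In the co-cultures, donors had received the same aSyn treatment, while acceptors had received the dye CellTracer Violet for 15 min and no aSyn of their own, and the populations were sorted apart by flow cytometry after mixing. Donors numbered 3, 4, 4, 3, 4 and 4 libraries at 0, 15, 30, 60, 150 and 300 min, and acceptors 3, 4, 4, 4, 4 and 3. Experiment 4 is not among the samples of either population at 0 min, experiment 2 not among the donors at 60 min and experiment 3 not among the acceptors at 300 min. Whether the cells outside co-culture passed through the sorter is not stated in the labels, nor which animals stand behind each experiment, so p-values measure the spread between these cultures.

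Microglia near amyloid plaques, dying neurons or damaged myelin lower their homeostatic genes and take on a common programme that includes these genes, and in mouse models its later stage needs the lipid receptor Trem2. The members cover lipid transport and hydrolysis (Apoe, Lpl), a growth factor (Igf1), an inhibitor of lysosomal proteases (Cst7), phagocytic and lysosomal surface proteins and lectins (Gpnmb, Lgals3, Clec7a), a secreted integrin ligand (Spp1), an integrin chain (Itgax) and a tetraspanin (Cd9). Apoe is also made by astrocytes.

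Levels are given as CPM, counts relative to the TMM-scaled library size, and are listed by experiment because the same experiment number occurs across the groups. The labels give passage 3 for experiment 1, passage 1 for experiment 2 and passage 2 for experiments 3 and 4, so experiment and passage cannot be told apart except between experiments 3 and 4, which share a passage. Library totals ranged from 7807389 to 15537493 counts. The lowest count of a unit was 53733 for Apoe, 16650 for Lpl, 4430 for Igf1, 75 for Cst7 and 33 for Itgax. Summed over 9 microglia markers, the level was between 4740 and 6969 CPM in the 20 aSyn-treated and donor units of experiments 1 to 3, against 5028 to 6307 CPM in the 20 untreated and acceptor units. In experiment 4 it was 2530 to 2752 CPM in the 6 aSyn-treated and donor units and 3804 to 4213 CPM in the 6 untreated and acceptor units. The ribosomal RNA gene Rn45s took 13.4% to 22.3% of counts in the libraries of experiment 4 and 1.42% to 13.5% in the others, and the labels place experiment 4 in a separate range of library numbers. The homeostatic markers Tmem119 and P2ry12 were low in all units, at 0.925 to 13.1 CPM and 1.48 to 12.3 CPM, while Csf1r, the receptor of microglial growth factors, was at 559 to 2434 CPM. Astrocyte markers (9 genes summed) reached 156 CPM in the untreated unit of experiment 4 and 89.99 CPM in that of experiment 3. They stayed at 8.02 to 49.6 CPM in the acceptors, 8.99 to 39.5 CPM in the donors and 11.2 to 38.0 CPM in the aSyn-treated cells. Aqp4 was at 0 counts in 27 of the 52 units and Gfap in 18. Oligodendrocyte-lineage markers (6 genes summed) had a mean of 268.3 CPM in untreated cells, with the highest unit at 565.7 CPM. Their mean was 144.9 CPM in aSyn-treated cells, 102.5 CPM in donors and 123.0 CPM in acceptors. The range of each of these groups overlapped that of untreated cells. The part of these differences in the results was not tested, and in bulk RNA fewer cells of a type and less RNA per cell cannot be told apart.

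Promoters are shown for the 4 members whose start region holds the AP-1 letters TGANTCA, because these members include genes on opposite sides of the aSyn comparison (Cst7 higher, Igf1 lower). RefSeq (GRCm38.p6) gave a window from 250 bases before to 50 bases after the start for 9 of the 10 genes. These 9 genes have 13 windows, since Apoe, Spp1 and Clec7a have more than 1 start, and some of these overlap. On either strand the AP-1 letters occurred in 4 of the 13 windows, 1 in each of 4 genes, and in 7.81% of all 32851 windows of the same 300 bases. The PU.1 core GAGGAA occurred in 6 of 13 windows (of Apoe, Spp1, Clec7a and Igf1) against 28.3% of all windows, and the E-box CACGTG in 0 of 13 against 7.15%. The stretches run 5′ to 3′ on the + strand from 200 bases before to 20 bases after the RefSeq start, with the AP-1 letters in capitals. The letters begin 6 bases before the start in Cst7, 8 bases after it in Gpnmb, 37 bases before it in Igf1 and 56 bases before it in Itgax. The letter N stands for any base. The middle base is C in Gpnmb (TGACTCA) and G in Itgax (TGAGTCA), but T in Cst7 (TGATTCA) and A in Igf1 (TGAATCA). The share of all windows was counted for the open pattern only, not for a fixed middle base. The Igf1 start used by RefSeq, 87861111, lies inside the gene as GENCODE draws it. A match describes the letters and is not a shown binding site.
Cst7, chr2:150570215-150570434: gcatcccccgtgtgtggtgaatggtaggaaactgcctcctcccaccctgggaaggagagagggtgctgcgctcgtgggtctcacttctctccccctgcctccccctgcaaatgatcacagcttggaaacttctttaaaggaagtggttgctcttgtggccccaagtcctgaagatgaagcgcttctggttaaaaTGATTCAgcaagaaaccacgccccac
Gpnmb, chr6:49036318-49036537: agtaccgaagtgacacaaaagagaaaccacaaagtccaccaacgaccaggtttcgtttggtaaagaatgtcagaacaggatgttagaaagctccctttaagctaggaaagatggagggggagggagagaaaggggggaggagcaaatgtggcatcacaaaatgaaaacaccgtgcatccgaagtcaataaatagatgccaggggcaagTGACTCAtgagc
Igf1, chr10:87860911-87861130: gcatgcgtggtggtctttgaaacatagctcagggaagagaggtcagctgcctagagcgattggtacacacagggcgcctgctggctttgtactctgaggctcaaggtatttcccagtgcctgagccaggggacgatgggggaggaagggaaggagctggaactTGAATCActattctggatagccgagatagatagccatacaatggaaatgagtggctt
Itgax, chr7:128129350-128129569: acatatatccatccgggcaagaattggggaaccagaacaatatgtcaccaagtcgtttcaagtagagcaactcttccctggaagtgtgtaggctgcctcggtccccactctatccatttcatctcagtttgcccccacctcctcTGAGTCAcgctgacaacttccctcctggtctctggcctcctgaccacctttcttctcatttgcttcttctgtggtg

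The first comparison asked what aSyn uptake without co-culture did to the programme. The members did not move as 1 block: Cst7 was higher in aSyn-treated cells in all 4 experiments, Lpl, Apoe and Igf1 were lower in all 4, and Gpnmb, Lgals3, Clec7a, Spp1 and Itgax were higher in experiments 1 to 3 and lower in experiment 4. In edgeR's quasi-likelihood test across all groups, 0 of the 10 passed an adjusted p of 0.05, where 2.50% of all tested genes did. The unadjusted p was below that threshold for 1 member, Lpl, against 17.1% of all genes, and DESeq2 also called 0 members. With the experiment number as a block, which compares cells within each experiment, 2 of 10 passed, Lpl lower and Cst7 higher, against 19.2% of all genes. Without experiment 4, the 3 other experiments gave 2 of 10 without the block (Gpnmb and Lgals3, both higher, against 2.30% of genes). With the block they gave 7 of 10, Gpnmb, Lgals3, Clec7a, Spp1 and Cst7 higher and Lpl and Igf1 lower, against 12.4% of genes. The median log2 fold change of the 10 members was 0.10 beside -0.04 for all genes. It was -0.06 beside -0.05 in the blocked fit of all experiments, and 0.54 beside -0.02 in the blocked fit without experiment 4.

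**Figure D1:**
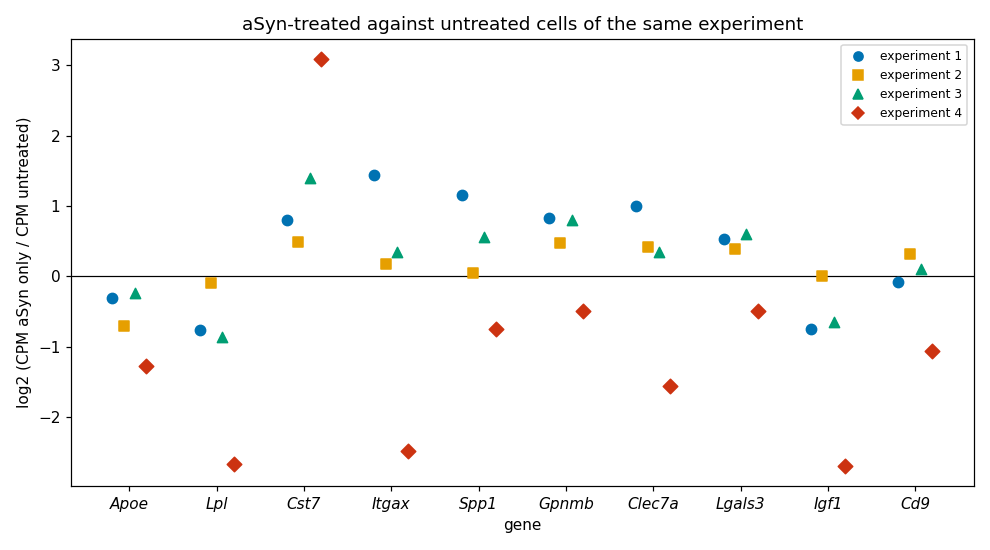
The log2 ratio of CPM in aSyn-treated over untreated cells (vertical axis, 0 marks no difference) for each of the 10 genes, 1 point per experiment. Cst7 lies above 0 in all 4 experiments and Apoe, Lpl and Igf1 lie below 0 (Igf1 of experiment 2 at a ratio of 0.999), while experiment 4 (diamonds) lies below 0 for the 9 genes other than Cst7.

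Lpl, lipoprotein lipase, which frees fatty acids from lipoprotein triglycerides, lies on chromosome 8 (GRCm38, 68880491 to 68907448, + strand). It was at 10462, 6363, 8059 and 9285 CPM in untreated cells of experiments 1, 2, 3 and 4, and at 6135, 5963, 4411 and 1453 CPM in aSyn-treated cells. The groups did not overlap, which held in the lower direction for 3.60% of all genes, and the ratio within an experiment ran from 0.157 in experiment 4 to 0.937 in experiment 2. Mean Lpl was 8542 ± 1753 CPM in untreated and 4491 ± 2168 CPM in aSyn-treated cells (SD, n = 4), and the log2 difference of -0.93 ± 0.45 (SE) had an edgeR adjusted p of 0.282. The call rested on the block: with it the value was -1.14 ± 0.33 (adjusted p = 0.0123), and with it and without experiment 4 it was -0.60 (adjusted p = 0.00990).

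Apoe, the main lipid carrier of the brain (chromosome 7, 19696109 to 19699188, - strand), was at 15541, 19244, 15459 and 12021 CPM in untreated cells of the 4 experiments and at 12588, 11726, 13125 and 4943 CPM after aSyn. The groups overlapped, although each experiment gave a lower value after aSyn, with ratios from 0.411 in experiment 4 to 0.849 in experiment 3. Its log2 fold change, -0.56 ± 0.41, was not called (edgeR adjusted p = 0.522, and 0.0772 with the block). The astrocyte marker sum also differed between the groups, reaching 156 CPM in untreated cells of experiment 4 against 11.2 to 38.0 CPM after aSyn, and its part in the Apoe values was not tested.

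Igf1, insulin-like growth factor 1, a trophic factor that microglia secrete (chromosome 10, 87858265 to 87937042, + strand), was at 3277, 1821, 2600 and 2747 CPM in untreated cells and at 1938, 1818, 1648 and 425 CPM after aSyn. Experiment 2 showed almost no difference, a ratio of 0.999, and experiment 4 the largest, 0.155. The log2 fold change was -0.84 ± 0.46 (edgeR adjusted p = 0.353) and -1.02 ± 0.38 with the block (adjusted p = 0.0511). Without experiment 4 the blocked value was smaller, -0.48, and passed the threshold (adjusted p = 0.00126). The antisense gene Igf1os overlaps Igf1, and the use of strand in counting is not given in the sources used here, so reads of the pair cannot be told apart.

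Cst7 encodes cystatin F, an inhibitor of lysosomal cysteine proteases such as cathepsin C (chromosome 2, 150570415 to 150578944, + strand). It was at 9.59, 45.1, 44.6 and 8.63 CPM in untreated cells of experiments 1 to 4 and at 16.7, 63.4, 118 and 73.3 CPM after aSyn. The groups overlapped: aSyn-treated cells of experiment 1 had less Cst7 than untreated cells of experiments 2 and 3. Within experiments the ratio was 1.41 to 2.64 in experiments 1 to 3 and 8.49 in experiment 4. The log2 fold change was 1.33 ± 0.79 (edgeR adjusted p = 0.400), 1.40 ± 0.41 with the block (adjusted p = 0.0147) and 0.87 with the block and without experiment 4 (adjusted p = 0.00329). A higher value in every experiment was seen for 14.8% of all genes, and a lower value in every experiment, as for Apoe, Lpl and Igf1, for 16.7%.

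Gpnmb, a lysosomal glycoprotein of phagocytes that have taken up lipid or debris (chromosome 6, 49036546 to 49070929, + strand), was at 1873, 2422, 2533 and 2861 CPM in untreated cells and at 3334, 3356, 4396 and 2028 CPM after aSyn. The first 3 experiments gave ratios of 1.39 to 1.78 and the fourth 0.709, so the highest untreated value and the lowest aSyn-treated value both came from experiment 4. Lgals3, galectin-3, a lectin that binds damaged lysosomes (chromosome 14, 47367751 to 47386160, + strand), was at 5808, 6838, 5644 and 5550 CPM in untreated cells and at 8386, 8972, 8513 and 3949 CPM after aSyn. Its 3 aSyn-treated values of experiments 1 to 3 lay above every untreated value and its value of experiment 4 lay below every one. Over 4 experiments the log2 fold changes were 0.44 ± 0.27 for Gpnmb and 0.32 ± 0.26 for Lgals3 (edgeR adjusted p = 0.428 and 0.561). Without experiment 4 both genes rose, Gpnmb by 0.71 (adjusted p = 0.0454) and Lgals3 by 0.51 (adjusted p = 0.0159) with no block, and with adjusted p = 1.34e-05 and 7.16e-05 with it.

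Clec7a, Dectin-1, a pattern receptor for fungal glucans that signals through Syk (chromosome 6, 129461591 to 129472779, - strand, listed by GENCODE as a polymorphic pseudogene), was at 382, 566, 462 and 528 CPM in untreated cells and at 763, 756, 584 and 178 CPM after aSyn. Spp1, osteopontin, a secreted ligand of integrins and CD44 (chromosome 5, 104435118 to 104441050, + strand), was at 2715, 3868, 4953 and 2938 CPM in untreated cells and at 6052, 4008, 7282 and 1741 CPM after aSyn. Both genes followed the pattern of Gpnmb, higher in experiments 1 to 3 and lower in experiment 4, as did 5.18% of all genes. Their log2 fold changes over 4 experiments were 0.23 ± 0.43 for Clec7a and 0.40 ± 0.42 for Spp1 (edgeR adjusted p = 0.827 and 0.675). In the blocked fit without experiment 4 Clec7a rose by 0.58 (adjusted p = 0.0221) and Spp1 by 0.57 (adjusted p = 0.0208). The gene model Gm42793 overlaps Spp1 on the same strand.

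Itgax, the integrin chain CD11c (chromosome 7, 128129547 to 128150657, + strand), was the member with the lowest counts, at 12.01, 3.97, 7.20 and 28.8 CPM in untreated cells and at 32.4, 4.48, 9.14 and 5.15 CPM after aSyn. The direction in experiment 4, a ratio of 0.179, was opposite to the ratios of 1.13 to 2.70 in the others, and the log2 fold change was -0.03 ± 0.86 (edgeR adjusted p = 0.992). It turned to 1.02 without experiment 4 and was not called there either (adjusted p = 0.703). Cd9, a tetraspanin that organises membrane receptors (chromosome 6, 125460266 to 125494791, - strand), was at 322, 128, 252.7 and 303 CPM in untreated cells and at 305, 158, 272 and 145 CPM after aSyn. It was higher in 2 experiments and lower in 2, and its log2 fold change was -0.19 ± 0.39 (edgeR adjusted p = 0.848).

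In experiment 4 the aSyn-treated and donor units did not overlap with the untreated and acceptor units for 9 of 10 members, 8 lower and 1 higher. The same held for 14.2% of all genes in the lower and 12.4% in the higher direction. The 6 aSyn-treated and donor units had 1424 to 1682 CPM of Lpl, against 5727 to 9285 CPM in the 6 untreated and acceptor units. For Igf1 the ranges were 381 to 436 CPM against 2193 to 2851 CPM, for Clec7a 178 to 191 against 514 to 648 CPM, and for Apoe 4261 to 4943 against 9988 to 14534 CPM. Gpnmb (1662 to 2028 against 2561 to 3379 CPM), Lgals3 (3234 to 3986 against 5550 to 6740 CPM), Cd9 (132 to 178 against 287 to 329 CPM) and Itgax (2.66 to 6.35 against 8.85 to 28.8 CPM) were also lower without overlap. Cst7 went the other way, at 62.7 to 85.8 CPM against 6.47 to 14.7 CPM, and Spp1 overlapped, at 1445 to 1741 against 1663 to 5179 CPM. The microglia marker sum of these units differed as well (2530 to 2752 against 3804 to 4213 CPM), and its part in these ranges was not tested. Experiment 4 has 1 unit per group, so no comparison could be tested within it.

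**Figure D2:**
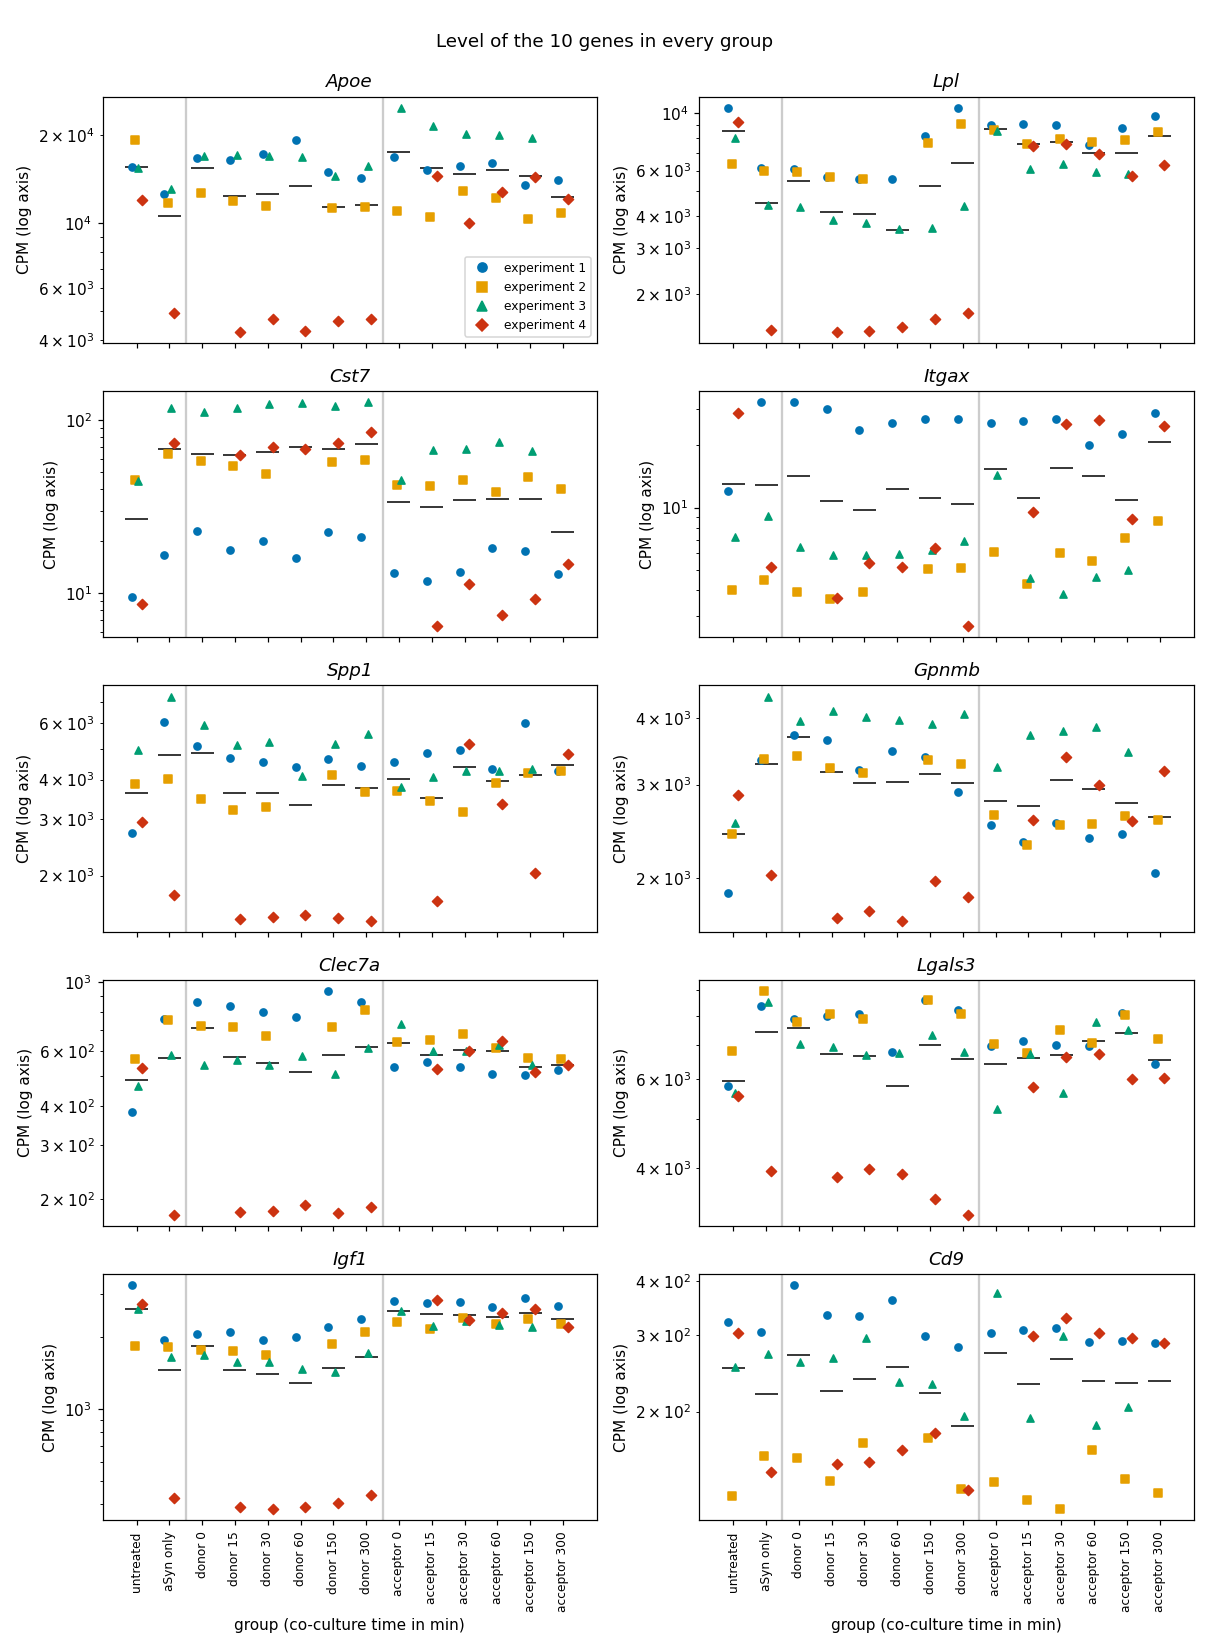
CPM of the 10 genes (log axis) in the 14 groups, 1 point per experiment, with a bar at the group mean; the vertical lines separate untreated and aSyn-treated cells, donors and acceptors. The aSyn-treated and donor points of experiment 4 (red diamonds) lie between 1424 and 1682 CPM for Lpl and between 381 and 436 CPM for Igf1, under all other points of these genes.

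Donors and acceptors of the same co-culture were compared next, in 21 same-numbered pairs over the 6 times. Igf1 was lower in the donors in 21 of 21 pairs, where 2.29% of all genes were lower in every pair. Its donor to acceptor ratio ran from 0.652 to 0.920 in experiments 1 to 3 and from 0.136 to 0.199 in experiment 4. At 15 min donors of experiments 1 to 4 had 2093, 1742, 1563 and 389 CPM of Igf1 and acceptors 2752, 2146, 2210 and 2851 CPM. Lpl was lower in 19 of 21 pairs, the 2 exceptions being experiments 1 and 2 at 300 min, and Cst7 was higher in 20 of 21, the exception being experiment 1 at 60 min. The pairs of 1 experiment share their cell preparation and are not independent, so these counts have no test.

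In edgeR's test, 0 of 10 members were called at any of the 6 times, against 0.251%, 0.888%, 0.805%, 0.418%, 0.167% and 0.0304% of all genes at 0, 15, 30, 60, 150 and 300 min. The unadjusted p was under 0.05 for Lpl at 30 min, where it was for 11.4% of all genes, and for no other member or time, with 6.11% to 11.5% of genes over the 6 times. DESeq2 also called 0 members. With the experiment as a block, Lpl fell at 15 min by 1.04 on the log2 scale (SE 0.33, adjusted p = 0.0365) and at 30 min by 1.09 (SE 0.33, adjusted p = 0.0253), the 1 member called at each of these times against 9.57% and 10.8% of genes. Without experiment 4 the blocked fit called 5 of 10 at 0 min, 3 at 15 min, 2 at 30 min, 2 at 60 min, 1 at 150 min and 0 at 300 min. The shares of all genes called in that fit were 11.1%, 6.66%, 8.58%, 4.50%, 3.26% and 1.17%. No library at 0 min belongs to experiment 4, so the 0 min comparison holds the same samples in both blocked fits: with all experiments in the fit it called 0 of 10 members and 4.28% of genes, and the log2 difference of Lpl was -0.71 there and -0.70 without experiment 4. At 0 min these members were Lpl (-0.70, adjusted p = 0.00329) and Igf1 (-0.48, adjusted p = 0.00133), which were lower, and Cst7 (0.84, adjusted p = 0.00507), Gpnmb (0.42, adjusted p = 0.00530) and Lgals3, which were higher. Igf1 was called at each time from 0 to 150 min in this fit, Lpl from 0 to 60 min and Gpnmb at 0 and 15 min.

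At 15 min Lpl stood at 5674, 5680, 3855 and 1424 CPM in the donors of experiments 1 to 4 and at 9124, 7633, 6092 and 7498 CPM in the acceptors. At 300 min the donors of experiments 1, 2 and 4 had 10502, 9123 and 1682 CPM and the acceptors 9756, 8463 and 6306 CPM. The donor value was thus above the acceptor value in 2 of 3 pairs at the last time. The donor minus acceptor difference of Lpl did not pass a test of change over time, with an edgeR adjusted p of 1.00 (0.998 in the blocked fit without experiment 4).

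Gpnmb was higher in the donors in 16 of 16 pairs of experiments 1 to 3, with ratios from 1.03 to 1.56, and lower in 5 of 5 pairs of experiment 4, with ratios from 0.512 to 0.770. Clec7a split by experiment as well: donors were higher in 6 of 6 pairs of experiment 1 (ratios 1.50 to 1.86) and 4 of 5 of experiment 2, and lower in 5 of 5 of experiment 3 (0.737 to 0.934) and 5 of 5 of experiment 4 (0.295 to 0.352). Apoe was higher in the donors in 5 of 6 and 4 of 5 pairs of experiments 1 and 2, and lower in all 10 pairs of experiments 3 and 4. Lgals3 and Cd9 were each higher in 13 of 21 pairs, and Spp1 and Itgax in 8 of 21. Each of these 4 genes was lower in the donors in 5 of 5 pairs of experiment 4.

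**Figure D3:**
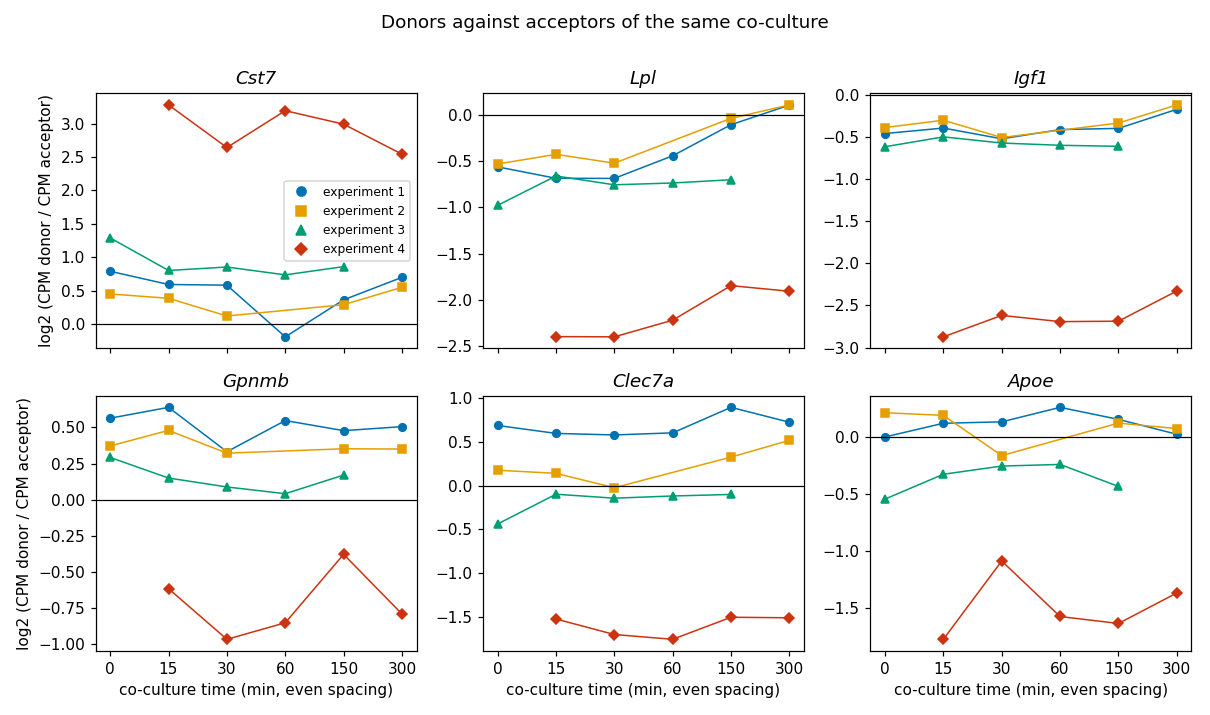
The log2 ratio of CPM in donors over acceptors of the same co-culture (vertical axis, scale set per gene) at 0 to 300 min (horizontal axis, evenly spaced), 1 line per experiment, for 6 genes. Igf1 lies below 0 throughout, Gpnmb lies above 0 in experiments 1 to 3 and below 0 in experiment 4, and Lpl of experiments 1 and 2 crosses 0 at 300 min.

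Donors were then set against aSyn-treated cells that had not been co-cultured. Donors were also mixed and sorted, and sorting of the aSyn-treated cells is not stated, so co-culture and handling cannot be told apart. Donors at 0 min are included. The 22 donor to aSyn ratios share 1 aSyn-treated library per experiment. Spp1 was lower in the donors in 21 of 22, with a median ratio of 0.807 and a lowest ratio of 0.564 in experiment 3 at 60 min. Donors of experiments 1 to 4 had 4684, 3200, 5139 and 1459 CPM of Spp1 at 15 min, where aSyn-treated cells had 6052, 4008, 7282 and 1741 CPM. Already at 0 min, donors of experiments 1 to 3 were lower, at 5086, 3464 and 5938 CPM. Lgals3 was lower in 20 of 22 (median ratio 0.890), and Gpnmb and Itgax in 17 of 22 each. The edgeR test called 0 of 10 members at any time, against 0% of all genes from 0 to 150 min and 0.0304% at 300 min. No member had an unadjusted p under 0.05, as 0.904% to 2.78% of genes did over the 6 times, and DESeq2 called 0 members as well. At 15 min the log2 difference of Spp1 was -0.40 ± 0.42 (edgeR adjusted p = 1.00).

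The donor series of Lpl differed between early and late times. Lpl was at 5674 CPM at 15 min and 10502 CPM at 300 min in experiment 1, at 5680 and 9123 CPM in experiment 2, at 3855 and 4362 CPM in experiment 3 and at 1424 and 1682 CPM in experiment 4, ratios of 1.85, 1.61, 1.13 and 1.18. Acceptors of experiments 1, 2 and 4 gave ratios of 1.07, 1.11 and 0.841. The F test over the 6 donor times did not call Lpl (edgeR adjusted p = 1.00, and 0.950 with the block), nor any other member, and 0.0607% of genes were called. Lpl was called in the blocked fit without experiment 4 (adjusted p = 0.0457), 1 of 10 members against 1.58% of genes. Igf1 also had ratios above 1 in all 4 donor series (1.09 to 1.198), as had Cst7 (1.08 to 1.37) and Clec7a (1.03 to 1.14), while Cd9 had ratios below 1 in all 4 (0.732 to 0.958). Over all genes 12.5% were higher at 300 than at 15 min in all 4 series and 10.9% lower, and none of these 4 members was called.

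**Figure D4:**
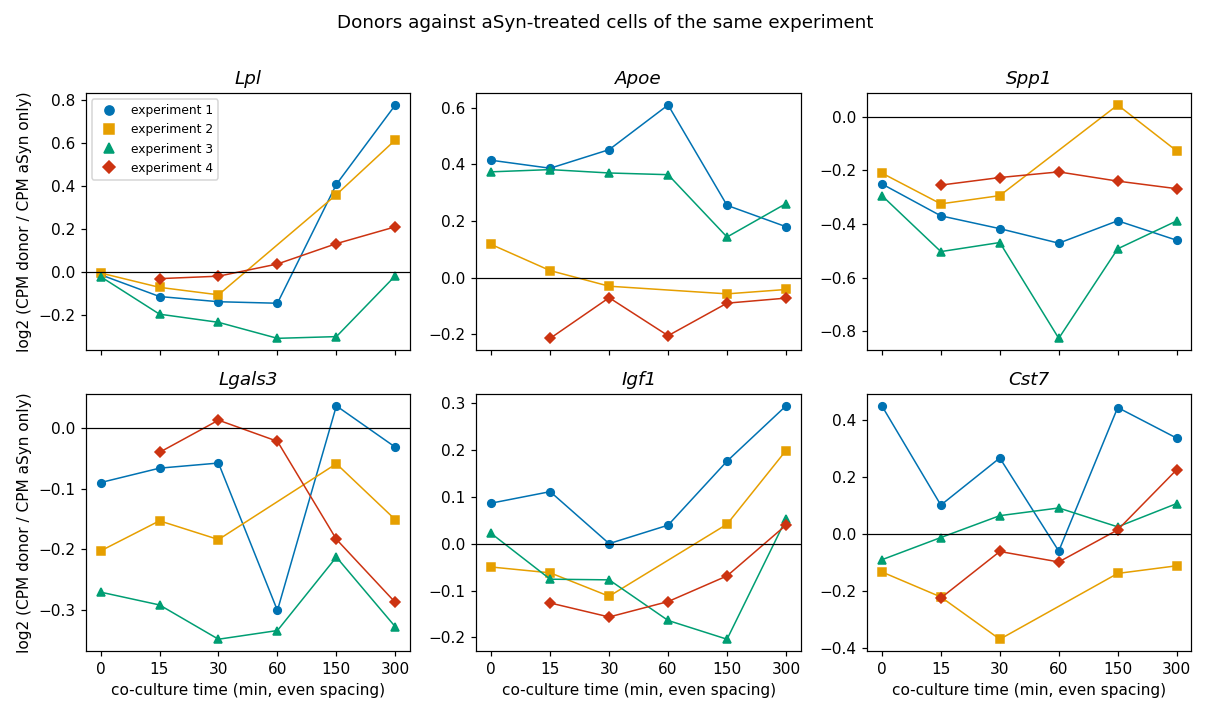
The log2 ratio of CPM in donors over aSyn-treated cells of the same experiment (vertical axis, scale set per gene) at 0 to 300 min (horizontal axis, evenly spaced), 1 line per experiment, for 6 genes. Spp1 lies below 0 in 21 of 22 points, and Lpl of experiments 1 and 2 is highest at 300 min.

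Acceptors, which had received no aSyn of their own, were set against untreated cells, with 22 ratios that share 1 untreated unit per experiment. Acceptors were also dyed and sorted, and sorting of untreated cells is not stated, so co-culture, dye and handling cannot be told apart. Clec7a was higher in the acceptors in 20 of 22, including 17 of 17 in experiments 1 to 3, with a median ratio of 1.22. Gpnmb and Lgals3 were higher in 19 of 22 each, with median ratios of 1.15 and 1.14. At 30 min acceptors of experiments 1 to 4 had 534, 682, 599.8 and 599.9 CPM of Clec7a. Untreated cells had 382, 566, 462 and 528 CPM, so each experiment was higher while the group ranges overlapped. Already at 0 min, acceptors of experiments 1 to 3 were higher, at 534, 640 and 736 CPM. The edgeR test called 0 of 10 members at every time, where 0%, 0%, 0.114%, 0.0683%, 0.137% and 0% of genes were called from 0 to 300 min. No member had an unadjusted p under 0.05 here, as 5.47% to 8.22% of genes did, and DESeq2 called 0 members. In the blocked fit without experiment 4, Gpnmb rose at 30 min (0.36, adjusted p = 0.0353) and Lgals3 at 150 min (0.37, adjusted p = 0.0111). Each was 1 of 10 members, against 4.56% and 3.19% of genes. Lpl of the acceptors was lower than in untreated cells in 15 of 22 ratios, with a median of 0.848, and higher in 6 of 6 of experiment 2. The test of change over the acceptor times called 0 of 10 members (0.00759% of genes).

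The groups hold different experiments (none of experiment 4 at 0 min, none of experiment 2 in donors at 60 min, none of experiment 3 in acceptors at 300 min), so the 14 groups were set against each other by their effects on log2 CPM after the experiment was taken out. By these effects Cst7 spanned 2.98-fold, from untreated cells to donors at 300 min. Lpl spanned 2.52-fold and Igf1 2.36-fold, both from donors at 60 min to untreated cells, and Itgax 2.30-fold. Spp1 spanned 1.64-fold, Apoe 1.55-fold, from aSyn-treated to untreated cells, and the other 4 members 1.27 to 1.43-fold. For Cst7 the 7 highest effects were those of the aSyn-treated cells and the 6 donor groups, and for Lpl, Igf1 and Apoe the same groups had the 7 lowest. In experiments 1 to 3 alone Apoe did not keep this order. Its mean there was 15158 and 15217 CPM in donors at 15 and 30 min and 14485 CPM in acceptors at 150 min. Donors were higher than acceptors in 9 of 16 same-numbered pairs of these experiments and lower in 7. How many of all genes show such a split of the groups was not counted. Plain group means, which also move with the experiments a group holds, spanned 3.24-fold for Cst7 (22.5 to 73.1 CPM) and 2.46-fold for Lpl (3537 to 8713 CPM). In the order of the plain means, 126 of 130 neighbouring pairs differed by less than the smaller of their SDs. Sorting places close means side by side, and these SDs hold the spread between experiments. The count thus shows only that single ranks are not firm, and cannot show whether groups differ. The group accounted for 39.8% of the variance of log2 CPM for Lpl, 36.8% for Igf1 and 25.7% for Cst7, against a median of 25.0% over all tested genes. It accounted for 6.40% to 16.9% in the other 7 members. The experiment accounted for 32.4% to 65.9% of the variance of the 10 members, with a median of 33.9% over all genes. These shares are not adjusted for the number of labels, and 14 group labels take up more variance by chance than 4 experiment labels. Group and experiment shares are thus not comparable, and a group share near the median of all genes does not by itself show a group effect.

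Likeness between genes was measured as Pearson's r over the 14 group effects after the experiment was taken out, and is a description across groups that share experiments. The gene most like Igf1 was Trem2, the lipid receptor of the programme (r = 1.00), and the next was Vkorc1. Lpl was most like Ap1s2 (r = 0.99) and Itga6, Cst7 most like P4hb (r = 0.99) and Rac2, and Apoe most like the lysosomal genes Cd68 and Hexa (r = 0.97 for each). The best matches of the other members had r from 0.83 for Spp1 (Galnt9) to 0.92 for Gpnmb (Chchd10). Among the members, after the experiment was taken out, Lpl and Igf1 varied together over the 52 units (r = 0.96, and 0.97 over the 14 group effects), and Cst7 varied against both (over the units r = -0.96 with Igf1 and -0.93 with Lpl, over the group effects -0.97 and -0.93). Gpnmb and Clec7a had r = 0.82 over the units and 0.23 over the group effects, and Clec7a and Lgals3 had 0.80 and 0.41, so these pairs were much less alike in their group effects than in their units. Taking out the experiment leaves the split within experiment 4 in place. There, aSyn-treated and donor units had 1424 to 1682 CPM of Lpl, and untreated and acceptor units 5727 to 9285 CPM. For Cst7 the ranges were 62.7 to 85.8 against 6.47 to 14.7 CPM. The part of this split in the r values was not tested.

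Of 30 further genes of the disease-associated programme, 1 rose with aSyn and 0 fell in the edgeR test, where 2.50% of all genes were called. Their median log2 fold change was 0.16 beside -0.04 for all genes. The riser was Ctsl, the lysosomal protease cathepsin L, from 543 ± 54.04 to 923 ± 150 CPM (log2 fold change 0.77 ± 0.17, adjusted p = 0.00595), higher in 4 of 4 experiments. With the block 7 rose and 4 fell, where 19.2% of all genes were called. The risers included the fatty acid binding protein Fabp5 (0.79 ± 0.11, adjusted p = 1.22e-06), the ferritin heavy chain Fth1 (0.99 ± 0.14, adjusted p = 3.69e-06), the protease Ctsz and the transcription factor Bhlhe40. Those that fell were Cd68, a lysosomal glycoprotein of phagocytes (-0.47 ± 0.14, adjusted p = 0.0159), Ch25h, which makes 25-hydroxycholesterol (-1.24 ± 0.33, adjusted p = 0.00614), the pyrophosphate transporter Ank and Baiap2l2. Trem2 was at 663 ± 119 CPM in untreated and 314 ± 196 CPM in aSyn-treated cells (SD, n = 4), lower in 4 of 4 experiments and not called (edgeR adjusted p = 0.416, and 0.0663 with the block).

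Homeostatic microglia genes were 13 of 14 tested, and 0 were called by edgeR (median log2 fold change -0.38), where 2.50% of all genes were called. With the block 2 rose and 3 fell, where 19.2% of all genes were called. Those that fell included the fractalkine receptor Cx3cr1 (-1.90 ± 0.47, adjusted p = 0.00331) and Gpr34, and Tmem119 and Tgfbr1 rose. Tmem119 rose from a low level, 2.73 ± 1.51 to 5.52 ± 2.13 CPM.

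Among 31 receptors, partners and targets of the member proteins, 4 rose and 0 fell in the edgeR comparison of aSyn-treated with untreated cells (median log2 fold change 0.11), where 2.50% of all genes were called. With the block 8 rose and 4 fell, where 19.2% of genes were called. Syk, the kinase downstream of Clec7a, rose from 77.7 ± 7.84 to 233.5 ± 81.9 CPM (log2 fold change 1.59 ± 0.29, adjusted p = 0.00121). Nr1h3, the liver X receptor that drives Apoe and cholesterol export genes, rose from 7.74 ± 4.31 to 27.6 ± 7.20 CPM (1.83 ± 0.37, adjusted p = 0.00303). Cd44, a receptor of Spp1, rose from 226.2 ± 33.4 to 366 ± 39.3 CPM (0.69 ± 0.15, adjusted p = 0.00565), and the fourth was Ctsl. Each of these 4 was higher in 4 of 4 experiments, experiment 4 included. Against acceptors of the same time, donors had higher Nr1h3 at all 6 times (log2 differences 2.05 to 2.30), Cd44 at 0 to 60 min and Syk at 15 to 60 min. The direction of Cd44 and Syk at the other times is not given here. Over the 6 times edgeR called 0.0304% to 0.888% of all genes.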

How the data were processed

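The files the authors deposited hold raw counts of reads by gene symbol for 54 QuantSeq FWD 3′ libraries (50 bp single reads, per the labels' protocols), and a DESeq2 normalized signal, per the file headers. The submitters' processing notes name STAR, Partek, DESeq2 and mm10, and counting rules and use of strand are not given in the sources used here. The normalized signal the authors deposited equalled the count divided by a size factor (0.634 to 1.34) in 100% of values within a tolerance of 0.051, and was used for that check only. No UMIs are stated, so counts may hold PCR copies. Each read of this kit comes from a 3′ end, so values were not divided by gene length and levels of different genes were not ranked.

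Groups came from the labels. Same-numbered untreated libraries differed by 10.3 and 12.1 chi-square per degree of freedom, against 24.2 to 288 for other untreated pairs, and were summed. Counts were tested with edgeR 4.0.16 (R 4.3.3; TMM, filterByExpr with a minimum count of 10, quasi-likelihood F test in 1 fit of 14 groups, Benjamini-Hochberg adjustment over 13169 genes). There were 19 pairwise comparisons and 3 tests over time. Same-numbered units deviated together from their group means (lowest correlation of a pair across genes 0.199, lowest comparison mean 0.339), so the number, taken from the titles, pairs the samples, and values with it as a block are given where they change a call. Standard errors came from the fold change and its F statistic. On simulated data for aSyn-treated against untreated cells (12972 genes), edgeR called 37 of 98 genes changed 2-fold and 70 of 98 changed 4-fold, with 6 false calls. The simulated counts had 1 mean per gene, no experiment effect and changes only in aSyn-treated cells, and only the fit without the block was run. These figures thus do not describe the blocked fits, nor data with a split such as that of experiment 4.

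The alternatives were the block, scaling by DESeq2's size-factor method (RLE), DESeq2 1.42.0, no low-count filter, each experiment left out, the block without experiment 4, unsummed untreated libraries, and fits of the compared groups alone. All 10 members were named, and beside them up to 5 genes per list and comparison with the smallest p-values (called ones first) and the 2 genes most like each member. A further gene that the rule names is not reported here. Single markers, the aSyn values of Trem2 (which the rule names as most like Igf1) and the list genes that fell with the block were added after their values were seen. The members and lists were chosen with earlier results of these data known. Gene coordinates are from GENCODE vM21.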

Additional observations from a re-analysis of the deposited data

Results flagged for a closer look

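Among 100 sets of 4 values (1 gene in 1 group), 8 had 1 experiment far from the other 3. Chance gives about 1 in 20 for independent sets. These sets share the same experiments across groups and genes, so the 8 cannot be set against that rate. For Itgax this was experiment 1, which was the highest in aSyn-treated cells (32.4 CPM, next 9.14 CPM) and in donors at 15, 30 and 150 min (30.1, 23.7 and 26.9 CPM, next 5.91, 5.90 and 6.35 CPM). In aSyn-treated cells, experiment 4 was far below the others for Apoe (4943 CPM, next 11726 CPM) and Lgals3 (3949 CPM, next 8386 CPM). In acceptors at 30 min, Igf1 of experiment 1 stood high (2783 CPM, next 2390 CPM) and Cd9 of experiment 2 stood low (119 CPM, next 299 CPM).

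In 6 of 60 gene and time combinations, every experiment moved one way in donors against aSyn-treated cells and the opposite way in acceptors against untreated cells. The share of all genes that meet this rule was not counted, so the 6 cannot be read as a trait of these members. Ratios of 1 experiment also share their reference unit across the times. Values are mean log2 ratios, donors first, and the difference was not tested. They were Itgax at 0 min (-0.24 and 0.91, a difference of -1.15), Gpnmb at 30 min (-0.13 and 0.33, -0.46), and Lgals3 at 60 min (-0.22 and 0.26, -0.48). At 300 min they were Spp1 (-0.31 and 0.50, -0.81), Gpnmb (-0.12 and 0.12, -0.24) and Lgals3 (-0.20 and 0.11, -0.31).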

How the results depend on the processing

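The main edgeR fit called 0 members in each comparison, and experiment 4 and the block decided the counts. For aSyn-treated against untreated cells the count was 2 of 10 with the replicate block, 7 with the block and experiment 4 left out, and 0 to 2 over the fits that each left out 1 experiment (2 without experiment 4). For donors against acceptors, over 60 gene and time combinations, it was 2 with the block and 13 with the block without experiment 4. That last fit called 2 of 60 for acceptors against untreated cells and 1 of 10 (Lpl) for change over time in donors. The block changed no other call. Of 132 alternative values of 12 log2 fold changes, 112 kept their direction and side of the threshold, 15 became called and 5 reversed: Itgax without experiment 4 (1.02, and 0.68 with the block), Cd9 likewise (0.078 and 0.12), and Clec7a without experiment 1 (-0.019). Over the fits that each left out 1 experiment, Itgax ran from -1.07 to 1.02, Cd9 from -0.30 to 0.078 and Clec7a from -0.019 to 0.59. RLE scaling, DESeq2, no filter, unsummed libraries and separate fits left every count of members at 0. Within experiment 4 alone nothing could be tested, and it and its library number range cannot be told apart.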
